A study of Mus musculus with 4 samples.

Results

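The genes described here are the Notch receptors *Notch1*, *Notch2*, *Notch3* and *Notch4*, the ligands *Jag1*, *Jag2* and *Dll1*, and the target genes *Hes1*, *Hes5* and *Hey1*. The 10 members were fixed by name, and a peak was taken as theirs when the deposited table gave it that gene name. All 10 had at least 1 m6A peak in each of the lists, which name 13554 genes between them. They held 39 of the 33556 peaks of the chronic constriction injury (CCI) list, 38 of the 34406 peaks of the sham list and 6 of the 4812 entries of the differential table.

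MeRIP-seq captures RNA fragments with an antibody against m6A (IP) and sets them against the uncaptured fragments (input). The tissue was spinal cord of male C57BL/6J mice aged 6 to 8 weeks. It was taken on day 7 after CCI, a loose ligation of the sciatic nerve with silk thread, or after sham surgery, in which the nerve was not ligated. Each group had 1 IP and 1 input library, the number of mice behind a library is not given, and no p-value or replicate error could be put on any difference between the groups.

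Notch signalling passes between cells in contact. A ligand of the Delta or Jagged family on one cell binds a Notch receptor on the next, and the receptor is cleaved by an ADAM protease and then by γ-secretase. The freed intracellular domain enters the nucleus, joins the DNA-binding protein Rbpj and switches on genes of the Hes and Hey families, whose products are repressors that hold neural progenitors and glia back from neuronal differentiation.

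The labelled tissue was checked by which marker genes carried a peak. Of 23 markers of spinal cord cells and of caudal position, 22 had a peak in CCI and 22 in sham, and the missing one was *Hoxc9*. The cortical markers *Tbr1* and *Emx1* had none in either list. Of the 3 markers of dorsal root ganglion neurons, 0 had a peak in CCI and 2 had one in sham, *Scn10a* with a highest fold enrichment of 8.13 and *Mrgprd* with 19.8, whereas *Trpv1* had none. The part of root or ganglion RNA in the differences below was not tested.

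Fold enrichment is the authors' ratio of IP over input at a peak. The receptors carried 21 peaks in CCI and 25 in sham, the ligands 13 and 9, and the targets 5 and 4. The median fold enrichment of the members' peaks was 9.43 in CCI and 8.28 in sham, against 5.73 and 5.70 over all peaks of the lists. The members also carried more peaks per gene than the lists as a whole, with a mean of 3.90 in CCI and 3.80 in sham against 2.70 and 2.67. The authors annotated 17 of the CCI peaks to 3′-UTRs, 16 to exons and 6 to 5′-UTRs. In sham these counts were 20, 12 and 6. The 3′-UTR share was 43.6% in CCI and 52.6% in sham, beside 49.8% and 48.9% over all peaks.

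A CCI peak and a sham peak were paired when they belonged to the same gene, shared at least 1 exonic base and were each other's best partner. This gave 31 pairs in the 10 members, out of 27179 pairs in all genes. The members were lower in CCI at most of their paired peaks. Fold enrichment was lower in CCI in 21 of the 31 pairs (67.7%) and higher in 10, beside 47.8% lower over all pairs. The count of lower pairs was not among the planned results. A *Notch1* site that each list gives in 2 overlapping entries counts as 2 of the lower pairs, and taken once it leaves 20 of 30 (66.7%). The median log2 ratio of CCI over sham was -0.23 in the members and 0.03 over all pairs, of which the middle 50% ran from -0.37 to 0.43. The lower side held in each role, with 12 of 18 pairs of the receptors, 6 of 9 of the ligands and 3 of 4 of the targets. In 7 of the 10 members the highest fold enrichment of the gene was lower in CCI, beside 49.8% of the 11761 genes in both lists, the exceptions being *Notch1*, *Hes1* and *Hey1*. This count draws on largely the same peaks as the pairs and can compare different peaks of a gene. In *Notch3* the CCI value, 17.7, is from a peak annotated to another gene, and the sham value, 20.9, from the 5′-UTR.

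A pair counts as past the fold when its fold enrichments differ at least 2-fold. This held for 6 of the 31 pairs of the members (19.4%) and for 15.8% of all pairs. Of these, 4 were lower in CCI, where all pairs gave 7.24%, and 2 were higher, where all pairs gave 8.6%. The 4 lower ones belonged to *Hes5*, *Notch1*, *Dll1* and *Notch3*, and the 2 higher ones to *Hey1* and to a *Notch3* peak that the annotation gives to another gene. Counted by gene, 5 of the 10 members had a pair past the fold, beside 31.4% of the 11568 genes with a pair. The members have more peaks than the average gene, and a gene with more pairs can pass more easily.

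Over the whole lists, pairs with a weak peak were past the fold more often than the others. The authors' log10 p-value of IP against input was above -10 in at least 1 peak of 14 member pairs, 4 of them past the fold, beside 22.5% of all such weak pairs. Among the other 17, the strong pairs, 2 were past the fold, beside 12.4% of all strong pairs. Of the 14 weak pairs, 9 were lower in CCI (48.8% over all weak pairs). Of the 17 strong pairs, 12 were lower (47.3% over all strong pairs). A weaker CCI peak can itself put a pair in the weak class. The exon 25 pairs of *Notch1* and *Notch2*, the 3′-UTR pair of *Dll1* and the pairs of *Hes1* and *Hes5* were weak by their CCI peak alone. Each was lower in CCI, and those of *Notch1*, *Dll1* and *Hes5* were past the fold. The counts by class therefore cannot show whether lower values or passing the fold go with peak strength. The median log2 ratio was -0.23 in the weak and -0.35 in the strong pairs of the members, or -0.28 in the strong pairs with the doubled *Notch1* site taken once. The p-value itself was less extreme in CCI in 24 of the 31 pairs, but so it was in 70.0% of all pairs. In bulk tissue, fewer cells of a type and less RNA or methylation per cell cannot be told apart.

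**Figure D1:**
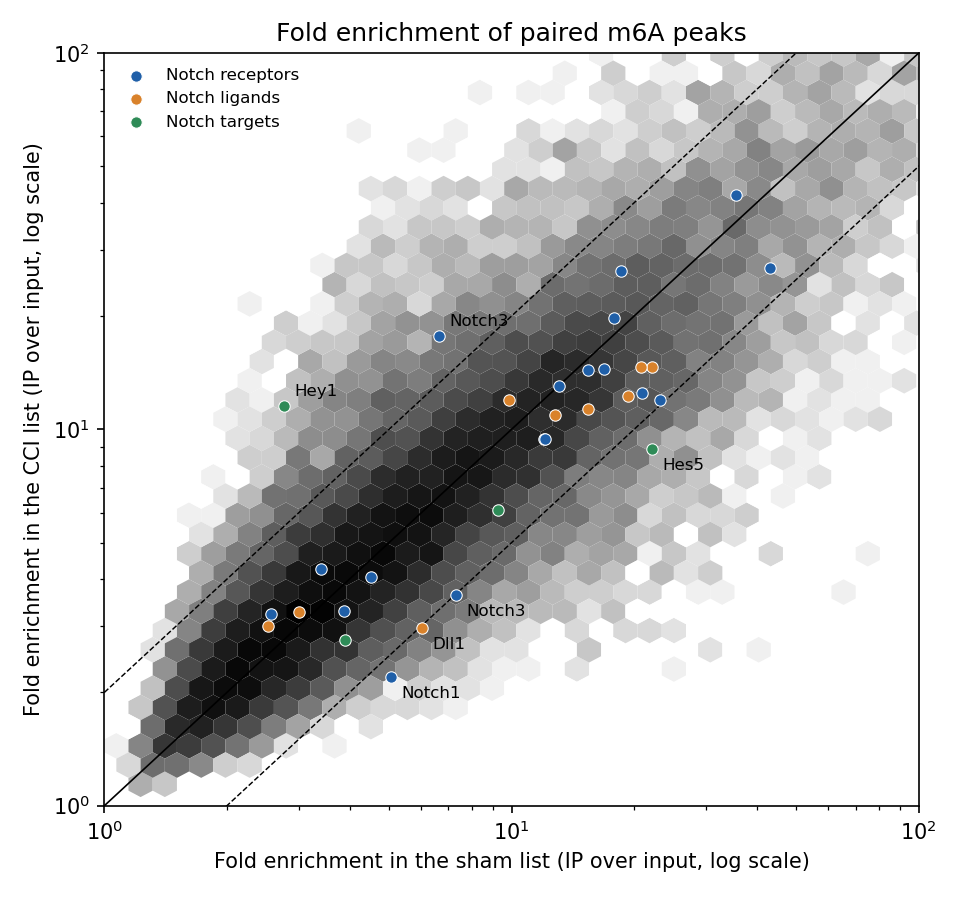
Fold enrichment (IP over input, log scales) of paired peaks in the sham list (horizontal) and the CCI list (vertical), cropped at 100 on both axes. Grey hexagons hold all pairs, darker where there are more, and the 31 member pairs are coloured by role. The solid line marks equal values and the dashed lines a 2-fold difference, with the 6 member pairs beyond them named. Most of the members, 21 of 31, sit under the solid line.

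Among the receptors, *Notch1*, which keeps neural progenitors and many glia undifferentiated, had 6 peaks in CCI and 8 in sham. Its strongest peak was annotated to the 3′-UTR (chr2:26459521-26460150 in CCI), with a fold enrichment of 41.9 in CCI and 35.6 in sham, a log2 ratio of 0.24. This was the only one of its 6 pairs that was higher in CCI. The next peak upstream, in exon 33 of 34 and spliced over an intron, was level, at 13.0 in CCI and 13.1 in sham. The peaks nearer the 5′ end differed more between the lists. A peak in exon 25 of 34 (chr2:26468495-26468644 in CCI) had 2.20 in CCI and 5.07 in sham, a log2 ratio of -1.20 and past the fold. It was also shorter in CCI, with 150 exonic bases against 270. The 5′-UTR peak had 12.0 in CCI and 23.2 in sham, a log2 ratio of -0.95 that stays just inside 2-fold, and its log10 p-values of -3.23 and -6.35 are among the weakest of the gene. Thus the strongest 3′-UTR peak of *Notch1* was slightly higher in CCI, and the exon 25 and 5′-UTR peaks were lower.

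Near the far end of the *Notch1* 3′-UTR each list gives the same site with nearly the same borders in 2 entries, at 9.43 and 9.43 in CCI and at 12.0 and 12.1 in sham. They overlap the long noncoding RNA gene *0610009E02Rik*, which in the RefSeq table for GRCm38.p6 spans chr2:26445924-26459390. The tables give no strand for a peak, but 1 of the CCI entries, starting at 26458504, stands among 14 plus-strand genes of the 20 entries of other genes around it, and the other, starting at 26458532, among 0 of 16. *Notch1* itself lies on the minus strand. A pair of weaker overlapping entries further out, with 2.73 and 3.08, was listed in sham only.

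*Notch2*, a widely expressed receptor, was the member with the most bases under peaks, 3628 exonic bases in CCI and 3299 in sham, most of them in the 3′-UTR. Its 5 pairs did not lean to one side, with 2 lower and 3 higher in CCI. The last peak before the transcript end (chr3:98149912-98150211 in CCI) had the highest fold enrichment of any member in sham, 43.2, and 26.9 in CCI, a log2 ratio of -0.68. The 3 other 3′-UTR pairs were higher in CCI, with 19.8 against 17.8, 26.3 against 18.6 and 4.25 against 3.41. The borders of the first 2 peaks of the 3′-UTR differed between the lists. In sham the first peak of the 3′-UTR ran over 1648 bases and the second over 780, while in CCI the first covered 1139 bases and the second 1468. An exon 25 peak was close in both lists, at 4.05 in CCI and 4.52 in sham.

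*Notch3*, the receptor of pericytes and vascular smooth muscle, had its main 3′-UTR peak at 14.4 in CCI and 15.4 in sham, a log2 ratio of -0.10. The RefSeq long noncoding RNA *Gm38585* (chr17:32113166-32131492) spans this and the other 3′-UTR peaks of the gene. A peak spliced over 3 blocks around exon 27 (chr17:32135484-32139191 in CCI) had 3.63 in CCI and 7.30 in sham, a log2 ratio of -1.01, only just past the fold. The 5′-UTR peak had 12.5 in CCI and 20.9 in sham, a log2 ratio of -0.74, over 61 bases in CCI and 180 in sham. In *Notch3* the main 3′-UTR peak was thus close to level, and the exon 27 and 5′-UTR peaks were lower in CCI.

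The *Notch3* pair with the opposite sign was the site at chr17:32140703-32141301, with 17.7 in CCI and 6.64 in sham, a log2 ratio of 1.41. The authors' annotation places it not in an exon of *Notch3* but in exon 2 of *Gm17276*, a gene on the plus strand, whereas *Notch3* is on the minus strand. Its entry in the CCI list stands among 16 plus-strand genes of 19 entries of other genes, and the main 3′-UTR peak of *Notch3* among 0 of 17. A weak sham entry given to the same exon of *Gm17276* (chr17:32141408-32143251, with 2.43) stands among 0 plus-strand genes of 15. The sham entry it overlaps (chr17:32141390-32141600, with 2.29) stands among 14 of 19. A RefSeq long noncoding RNA, *Gm41568*, also spans it (chr17:32139794-32142935). The peak that carries the name *Gm17276* itself, at chr17:32113459-32113907, was likewise higher in CCI, with 12.2 against 6.20. The higher value is therefore recorded for the locus, and whether it belongs to the receptor's RNA was not tested.

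*Notch4*, a receptor of endothelium, had its last peak at 14.5 in CCI and 16.9 in sham, a log2 ratio of -0.22. In sham this was 1 peak of 1200 exonic bases from 34587145 to 34588503 on chromosome 17. In CCI the same stretch was split into 2 peaks, of 301 bases at 4.60 and of 600 bases at 14.5. The called length was thus shorter in CCI, and the fold enrichments were taken over stretches of different length. A weak peak had 3.24 in CCI, over 151 bases in 2 blocks from exon 2, and 2.57 in sham, over 61 bases in exon 3.

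**Figure D2:**
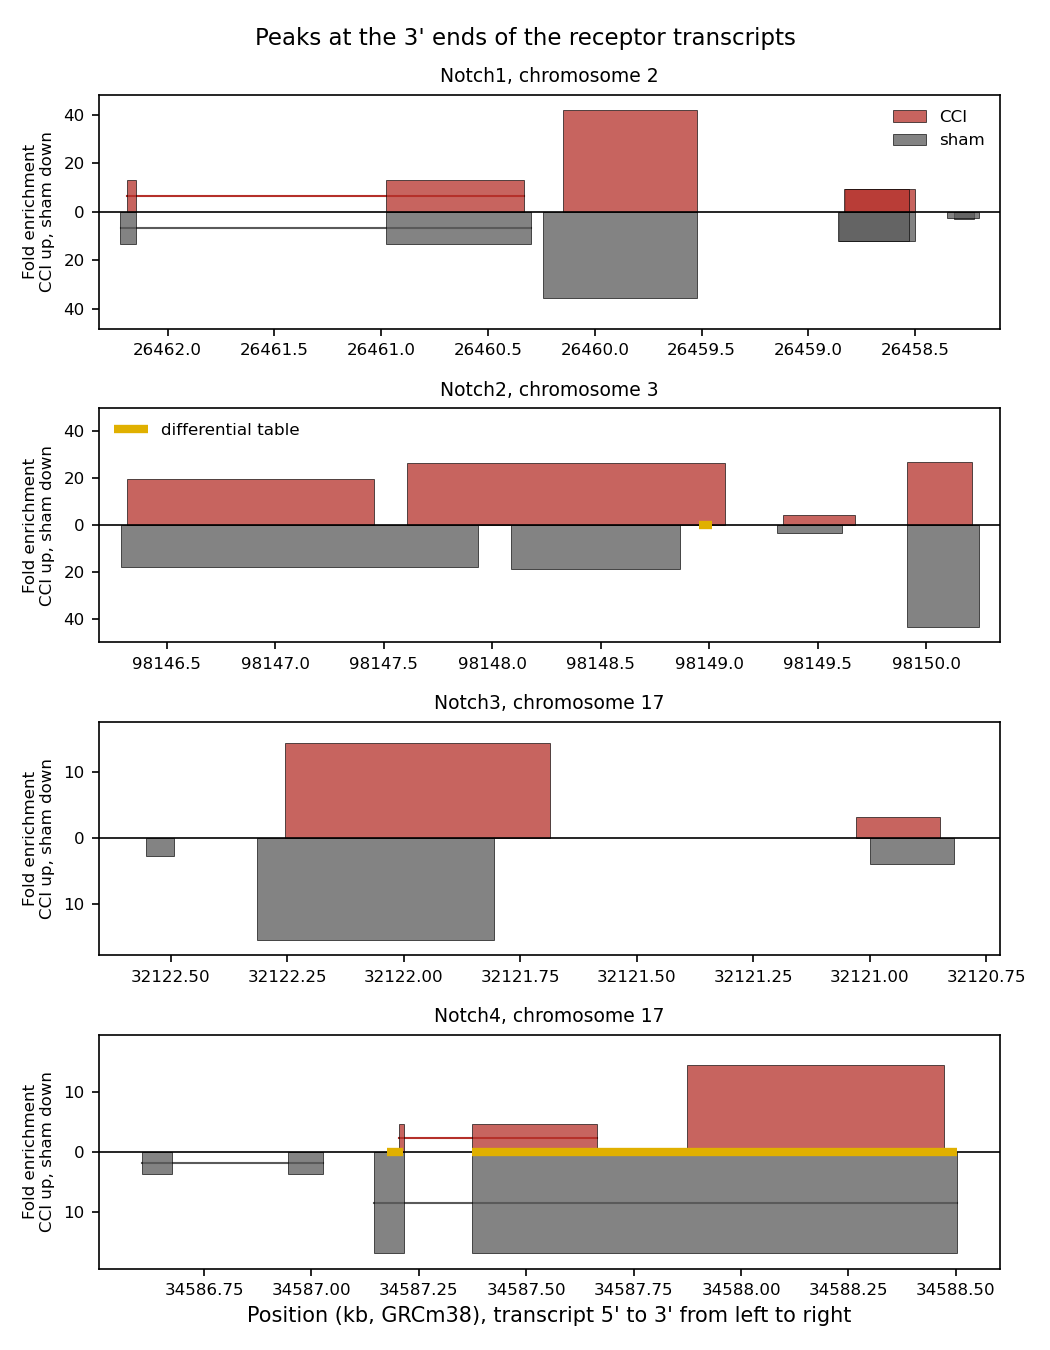
Peaks at the 3′ ends of the 4 receptor genes, with position in kb (GRCm38) from 5′ to 3′ of the transcript on the horizontal axis and fold enrichment on the vertical, CCI upwards in red and sham downwards in grey. Boxes are exonic blocks, thin lines join blocks of 1 peak, darker boxes are overlapping entries, and yellow bars mark entries of the differential table. The last *Notch2* peak reaches 26.9 in CCI and 43.2 in sham, and the sham *Notch4* peak of 1200 bases is divided in CCI.

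Among the ligands, *Jag1*, which astrocytes and endothelium present to neighbouring cells, had 1 peak per list, in its last exon. It had 12.3 in CCI and 19.3 in sham, a log2 ratio of -0.65. The CCI peak (chr2:137083039-137083428) was annotated to exon 26 of 26 and the sham peak (chr2:137083010-137083398) to the 3′-UTR, although their borders differ by about 30 bases. This was the only one of the 31 pairs whose region differed between the lists.

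*Jag2*, the second Jagged ligand, had 7 peaks in CCI and 4 in sham, the largest gain in number of any member. The extra peaks were weak ones. In CCI, 2 exon peaks had no counterpart in sham, with 4.34 over 61 bases and 2.17 over 150 bases, and a sham peak of 539 bases at the transcript end was met by 2 CCI peaks. The strong peaks were lower in CCI, with 11.3 against 15.4 at the main 3′-UTR peak, a log2 ratio of -0.45, and 14.6 against 22.1 at the last one, a log2 ratio of -0.60. The 5′-UTR peak had 10.9 in CCI and 12.8 in sham.

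*Dll1*, the Delta ligand that differentiating neurons present to progenitors, had its strongest peak spliced into exon 9, with 14.6 in CCI and 20.8 in sham, a log2 ratio of -0.51. Its 3′-UTR peak (chr17:15367713-15367833 in CCI) had 2.97 in CCI and 6.04 in sham, a log2 ratio of -1.02, and covered 121 bases in CCI against 270 in sham. This pair is past the fold, but under a rule that 50% of both peaks must be shared it would be no pair. A peak inside the 5′-UTR had identical borders in both lists and was close, with 3.01 in CCI and 2.52 in sham. *Jag1*, *Jag2* and *Dll1* therefore each had their strongest shared peak lower in CCI.

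*Dll1* also carries peaks upstream of that site which the authors annotate to exon 2 of another gene, known in the tables by its Ensembl identifier only. They had 14.6 and 12.0 in CCI and 9.88 in sham, and their log10 p-values were between -3.23 and -4.06. All 19 entries of other genes around them in the CCI list were plus-strand genes, and *Dll1* lies on the minus strand. Across the members, 4 CCI peaks and 4 sham peaks, all in *Notch3* or *Dll1*, were annotated to an exon of another gene, beside 3.02% of all CCI peaks and 3.24% of all sham peaks. Without them, 21 of the 29 remaining pairs were lower in CCI and the median log2 ratio was -0.35, a setting chosen after the data were seen.

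The target genes had few peaks and the widest ratios. *Hes1*, a repressor that maintains progenitors and glia, had a 3′-UTR peak with 2.76 in CCI and 3.90 in sham, a log2 ratio of -0.50. A second peak, of 61 bases in exon 1 (chr16:30066478-30066538), was listed in CCI only, with a fold enrichment of 13.0 and a log10 p-value of -3.56. Because of it, the log2 ratio of the gene's highest fold enrichment in each list is 1.74, with the sign opposite to that of the shared peak.

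*Hes5*, a repressor that Notch induces in neural progenitors, had a single peak in each list, at the 5′ end. It had 8.86 in CCI (chr4:154960858-154960974) and 22.1 in sham (chr4:154960858-154961091), a log2 ratio of -1.32, the lowest of all 31 pairs. The peak was also shorter in CCI, with 117 bases against 234, and its log10 p-value was -3.76 against -13.4. Fold enrichment, length and p-value were all lower or weaker in CCI. The peak begins 65 bases before the start of the transcript it was assigned to, at 154960923, but lies wholly inside the RefSeq gene *Hes5* (chr4:154960626-154962372). Its entries stand among minus-strand genes, with 2 plus-strand genes of 20 in CCI and 0 of 20 in sham, although *Hes5* is on the plus strand, so which strand the RNA came from is not settled by the tables.

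*Hey1*, a related repressor active in vessels and in neural progenitors, had the ratio furthest from 0. Its 5′-UTR peak (chr3:8666897-8667076 in CCI) had 11.5 in CCI and 2.76 in sham, a log2 ratio of 2.06, the highest of all 31 pairs. The p-values did not differ to the same degree, with a log10 of -8.57 in CCI and -7.42 in sham. The 3′-UTR peak, spliced over 2 blocks from 8664377 to 8665573 on chromosome 3 in CCI, was lower, with 6.10 against 9.26 in sham, a log2 ratio of -0.60. In p-value it was by far the stronger peak, with a log10 of -100 in CCI and -179 in sham. The peaks at both ends of the gene thus differed in opposite directions. The authors assigned them to different transcripts of *Hey1*, and the 5′ peak runs past the RefSeq end of the gene (8667038) and overlaps a second RefSeq gene, *LOC115489673*, at chr3:8666924-8669688.

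**Figure D3:**
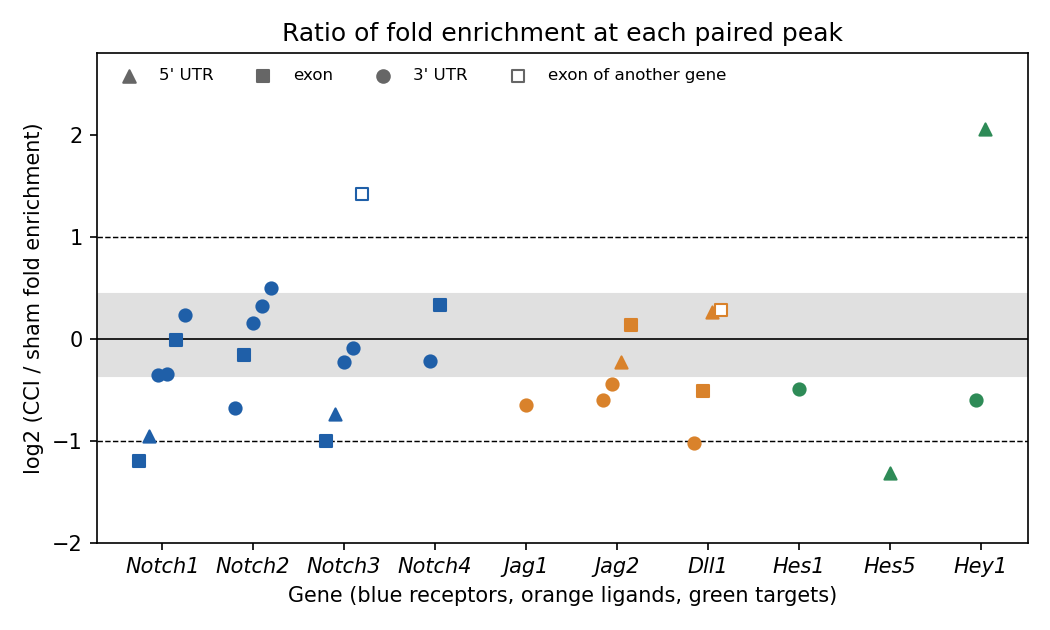
The log2 ratio of CCI over sham fold enrichment (vertical axis) for each of the 31 pairs, by gene (horizontal axis), with 1 symbol per pair. Triangles are 5′-UTR, squares exon and circles 3′-UTR peaks by the sham annotation, open symbols lie in an exon of another gene, the grey band is the middle 50% of all pairs and dashed lines mark 2-fold. *Hey1* holds the highest value, 2.06, and *Hes5* the lowest, -1.32.

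By region, 11 of the 15 member pairs in a 3′-UTR were lower in CCI, beside 45.2% of all 3′-UTR pairs, with a median log2 ratio of -0.35 beside 0.06. With the doubled *Notch1* site taken once, 10 of 14 were lower and the median was -0.29. In 5′-UTRs 4 of 6 were lower, beside 53.6% of all such pairs, with a median of -0.49 beside -0.07. All 6 were weak pairs by the division at a log10 p-value of -10. They include the *Hey1* pair, which overlaps a second RefSeq gene, and the *Hes5* pair, whose strand is not settled. In exons 5 of 9 were lower, beside 48.4%, with a median of -0.01 beside 0.02. The 9 include a *Notch3* pair at 1.41 and a *Dll1* pair at 0.28. Both are annotated to an exon of another gene and were higher in CCI. The *Jag1* pair, whose region differs between the lists, is in none of these counts. The members' peaks were also more often shorter in CCI, with 19 pairs shorter, 10 longer and 2 equal in exonic length, and over all pairs 44.4% were shorter and 31.5% longer in CCI. The fold enrichments of the lists rest on different inputs and different borders.

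Peaks found in only one list made up shares near those of the whole lists. A peak counts as without a partner when it shares no exonic base with any peak of its gene in the other list. There were 6 such CCI peaks (15.4%, beside 13.2% of all CCI peaks) in *Jag2*, *Notch2*, *Notch3*, *Dll1* and *Hes1*, and 7 such sham peaks (18.4%, beside 16.9% of all sham peaks) in *Notch1*, *Notch3* and *Notch4*. The *Notch1* entries among these sham peaks overlap each other, as do those of *Notch3* at chr17:32141390-32141600 and chr17:32141408-32143251. Taken once, these sites would give a lower sham share, and no whole-list share was counted in that way. All 13 had a log10 p-value above -10, the most extreme being -7.72, and 89.0% of all peaks without a partner did so. Another 2 member peaks shared bases with the other list but had no mutual best partner.

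The authors' differential table named 5 of the 10 members, beside 25.3% of all 13558 genes in the tables. The members have more peaks than the average gene, and a gene with more peaks can be named more easily. By entry, the members held 6 of the 4812, beside 39 of the 33556 CCI peaks and 38 of the 34406 sham peaks. The 6 entries were 1 each for *Notch1*, *Notch2*, *Notch4* and *Hey1* and 2 for *Notch3*. *Jag1*, *Jag2*, *Dll1*, *Hes1* and *Hes5* had none, so the *Hes5* peak with the lowest ratio is not in it, nor is the 5′-UTR peak of *Hey1* with the highest. The *Hey1* entry covers the 3′-UTR peak over 840 exonic bases, the *Notch1* entry the exon 25 peak over 240 bases and the *Notch4* entry 1170 exonic bases at the last sham peak. The *Notch2* entry is a stretch of 61 bases (chr3:98148953-98149013) inside a CCI peak and between sham peaks. Of the 2 *Notch3* entries, 1 covers the exon 27 peak and the other, of 91 bases, lies in the stretch annotated to *Gm17276*, where CCI has a peak of 4.47 and sham none.

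The start of a gene could be set beside sequence where a RefSeq window was at hand, from 250 bases before to 50 after a transcript start (GRCm38.p6). A gene can have further starts, and for *Hes5*, *Jag2* and *Dll1* the start of the window reached by a peak (154960923, 112929495 and 15375823) lies inside the RefSeq span of the gene and not at its outer end. Of the members, 8 had a window, all but *Hes1* and *Hey1*, and a peak reached into one in 5, *Notch1*, *Notch3*, *Jag2*, *Dll1* and *Hes5*. In *Dll1* only a CCI peak annotated to an exon of another gene (chr17:15376005-15376125) reached the window. The share of all windows reached by a peak was not counted. The letters GGAC before any base but G, a common form of the m6A motif, were searched on both strands of the reached stretches and occurred only in *Hes5*. There the 115 bases held 1 match on the strand of the gene and 3 on the other, and 51.1% of the 32851 windows held at least 1 match in their last 115 bases. A match of letters describes the window and does not show a methylated base. The first 29 bases of the *Hes5* peak, on the plus strand at chr4:154960858-154960886, are shown because this peak had the lowest ratio, with the match in capitals.
Hes5: cccGGACCccaggcgccgggccgctgccc

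The wider pathway was covered by 53 other genes, of which 48 had a peak and 44 a pair. Of their 125 pairs, 56 (44.8%) were lower in CCI, with a median log2 ratio of 0.06. The groups differed, from 2 of 7 pairs lower (28.6%) in the sugar transferases to 5 of 8 (62.5%) in the ligand ubiquitin ligases and 5 of 7 (71.4%) in the proteases that cut before γ-secretase. A pair past the fold was present in 12 of the 44 genes (27.3%), beside 31.4% of all genes with a pair. Of the 125 pairs, 9 were past the fold and lower in CCI (7.20%, beside 7.24% of all pairs) and 6 higher (4.80%, beside 8.6%). The differential table named 11 of the 48 genes with a peak (22.9%, beside 25.3% of all genes in the tables).

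The nuclear partners of the receptor held the largest number of the genes with a pair past the fold (values in CCI first, in sham second). In the activating complex, 5 of the 6 genes with a pair had at least 1 past the fold, but these genes hold many pairs, and by pair it was 6 of 27 (22.2%, beside 15.8% of all pairs), with 12 of the 27 lower in CCI. *Rbpj*, which carries the intracellular domain to DNA, had a 5′-UTR peak with 48.7 and 116, and *Ep300*, the acetyltransferase of the complex, a 5′-UTR peak with 20.3 and 123, a log2 ratio of -2.60, although 5 of the 8 *Ep300* pairs were higher in CCI. The co-activator *Maml1* had 2 such pairs, both lower in CCI, with 11.5 against 23.2 and 10.4 against 27.9. In *Maml2* and *Maml3* the pair past the fold was higher, with 41.7 against 15.1 and 4.82 against 2.17, while over all their pairs 2 of 3 in *Maml2* and 1 of 6 in *Maml3* were lower. By the median over a gene's pairs, *Rbpj* was lowest, at -0.97, and *Snw1* highest, at 0.46. Among the co-repressors, 1 of 2 pairs of *Tle1* was past the fold and higher, with 19.5 against 9.30, and 1 of 4 pairs of *Tle2* past the fold and lower, with 4.90 against 12.8. The other 3 *Tle2* pairs were higher in CCI. The medians of the group ran from -0.16 in *Spen* to 0.56 in *Tle3*.

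The γ-secretase genes encode the complex that makes the last cut of the receptor. Of the 6 covered here, 1 had a pair past the fold. This was *Psen2*, which had 3 pairs past the fold, 2 lower, with 5.44 against 16.8 and 2.25 against 4.51, and 1 higher, with 9.50 against 4.58. Its median was the lowest of the 6 and just past the fold, and that of *Ncstn* was the highest, at 0.44 from 1 pair. Of the proteases acting before it, *Adam17* was lowest at -0.83 and *Adam10* highest at -0.07, with no pair past the fold.

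Genes that act on the ligands or on the sorting and turnover of the receptor varied without a common side. *Neurl1a*, a ligand ubiquitin ligase, had a pair with 2.65 in CCI and 7.55 in sham and the lowest median of its group, -0.46. *Mib1* had the highest, 0.32, from 1 pair. Its only CCI peak had 2.89, and its strongest sham peak, at 15.1, is not in that pair. *Pofut1*, which puts fucose on Notch, had a pair with 5.73 against 13.9, while its 3 other pairs were higher in CCI, and in its group the medians ran from -0.35 in *Rfng* to 0.41 in *Poglut1*. Among the genes of inhibition, sorting and turnover, *Numbl* had a pair with 42.7 in CCI and 7.75 in sham, a log2 ratio of 2.46, and 2 of its 5 pairs lower in CCI. *Dtx3* had one with 94.5 against 41.2, and its 2 other pairs were lower in CCI. The medians of this group ran from -0.26 in *Fbxw7* to 0.81 in *Numb*. The other ligands, from *Cntn1* at 0.01 to *Dlk2* at 0.41, and the other Hes and Hey genes, from *Hes7* at -0.90 to *Heyl* at 0.14, had no pair past the fold. The values of *Rfng*, *Numb*, *Dlk2* and *Hes7* rest on 1 pair each.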

How the data were processed

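The measurements were MeRIP-seq of spinal cord RNA from CCI and sham mice, 1 IP and 1 input library for each. Per the labels, the submitters' processing notes name fastp, HISAT2, HOMER, ChIPseeker and the build GRCm38, whereas the methods of the paper name Cutadapt, bowtie, MACS2 and ChIPseeker, and the deposited tables have the column names of exomePeak. The deposited fold enrichment of a peak is the authors' ratio of its IP to its input signal. The log10 p-value and log10 FDR of a peak are the authors' test of IP against input and were used as a deposited score. The deposited differential table also holds the authors' own log2 fold change, p-value and FDR between groups in 3 columns, which were not used. That table served for the presence and position of its entries alone. The files hold no read counts, so the depth per library is unknown.

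Peaks were compared by exonic blocks within a gene ID. Pairs were mutual best partners by shared over joint bases, formed over the whole lists. The members and the gene lists were chosen with earlier results of these data known. All 10 members were named. Of the other pathway genes, those with the highest and lowest median log2 ratio in each group with at least 3 paired genes were named, and every gene with a pair past 2-fold. Some genes of the lists are not reported here. *Gm17276*, *Gm38585*, *Gm41568*, *0610009E02Rik* and *LOC115489673* were added after their positions were seen, as were the division of pairs at a log10 p-value of -10 and the count of entries around a peak (up to 10 on each side, other genes of the same chromosome). The alternatives covered FDR, fold enrichment, overlap, scaling, the fold and the unit of counting. The pairing step was tested on simulated data. Python 3.11.15, numpy 2.4.6, pandas 2.3.3 and matplotlib 3.10.9 were used.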

Additional observations from a re-analysis of the deposited data

How the results depend on the processing

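No paired analysis was possible because only 1 IP and 1 input library stood for a group. Of 56 values under other settings, 45 stayed close (counts within 1.5 times, log2 ratios within 0.1) and 11 moved. Centring shifts each log2 ratio by the median over all pairs, 0.03, which is inside the limit of 0.1. The fold enrichment limit of 2 removed no member peak. In *Notch1*, *Notch4*, *Jag1*, *Dll1* and *Hes5* the highest fold enrichment gave the ratio already used. Such values had to stay close, so the 45 do not measure how firm the results are. The sign changed in 3 of the 10 members' single ratios, *Notch2*, *Hes1* and *Hey1*. With 50% of both peaks required to be shared, the peaks without a partner went from 13 to 23, since more peaks then fail to match. At 1.5-fold, the pairs past the fold went from 6 to 12 (35.2% of all pairs are past 1.5-fold) and the other pathway genes from 12 to 24 of 44 (past 1.5-fold in 58.2% of all genes with a pair). The median log2 ratio of the pairs, -0.23, was -0.35 without peaks in an exon of another gene, -0.45 without peaks inside the span of another RefSeq gene (both chosen after the data were seen) and -0.38 from the highest fold enrichment of each gene. That last measure, set against the pair with the most extreme sham p-value, moved *Notch2* from 0.15 to -0.68, *Notch3* from -0.10 to -0.24, *Jag2* from -0.45 to -0.60, *Hes1* from -0.50 to 1.74 and *Hey1* from -0.60 to 0.31, and the cause lies in its taking a different peak. The pairs lower in CCI were 19 of 27 at 50% overlap, and 17 of 25 outside other RefSeq genes. Taking overlapping pairs of a gene once, also chosen after the data were seen, changed the pairs to 30, with 6 past the fold. With 1 library per group, the spread between animals is unknown for every ratio, and without read counts no interval could be put on a fold enrichment.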
